A study of Sus scrofa with 9 samples.

Results

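The circadian clock genes were examined in the apex of 9 porcine hearts donated after circulatory death (DCD) and stored in different ways. The set was chosen by name: PER1, PER2, PER3, ARNTL, CLOCK, CRY1, NR1D1, NR1D2, DBP and BHLHE40. Of these 10 genes, 8 carried their symbol in the expression table of 25149 genes, and NR1D1 and BHLHE40 were not analysed here. Of the 8 listed genes, 6 reached at least 1 TPM, a measure of transcript level that corrects for the length of the gene and the total of the library, in at least 3 hearts and were tested among 11782 genes. PER3 and DBP did not reach that level and are given as values.

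PER1 was the member that set the 24 h hearts apart. Its TPM level was lower in every heart stored for 24 h than in every heart stored for 2 h, with group means of 42.3 TPM against 81.1 and 105 TPM, although the groups that had NRP overlapped under median-of-ratios scaling and quantile normalization. CRY1 was lower in every heart procured without regional perfusion than in every regionally perfused heart stored for 2 h. ARNTL varied most between hearts of the same group, and PER2, CLOCK and NR1D2 overlapped in every comparison. No member passed the adjusted test in any comparison.

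As background, the clock is a feedback loop of transcription that runs in nearly every cell, the cardiomyocyte included. ARNTL (also called BMAL1) and CLOCK form the activator that binds E-box elements and switches on the PER and CRY genes, whose proteins return to the nucleus and repress the activator. The same activator drives NR1D1 and NR1D2, nuclear receptors that repress ARNTL, and DBP, a transcription factor that carries the rhythm to output genes. PER1 also answers directly to glucocorticoids, cyclic AMP and temperature, and in the heart the loop sets daily rhythms of metabolism and excitability.

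The hearts came from female American Yorkshire pigs of 4 to 6 months, and every donor underwent 15 min of warm ischemia after induced circulatory arrest. In 3 hearts (NRP + SCS 2 h, pigs 24, 25 and 29) warm blood was then circulated in the donor for 60 min (normothermic regional perfusion, NRP), and the heart spent 2 h in static cold storage (SCS) at 4 °C. In another 3 hearts (NRP + HOPE 24 h, pigs 27, 28 and 30) the same NRP was followed by hypothermic oxygenated perfusion (HOPE) for 24 h at 8 °C. The last 3 hearts (No NRP + HOPE 2 h, pigs 31, 33 and 34) were procured without NRP and were perfused with HOPE for 2 h at 8 °C. All 9 hearts were rewarmed and reperfused for 2 h by normothermic machine perfusion (NMP) primed with donor blood, and the biopsy was frozen at its end. Storage method, duration and temperature changed together between the groups of pigs 24, 25 and 29 and of pigs 27, 28 and 30, and NRP, storage method and temperature between the groups of pigs 24, 25 and 29 and of pigs 31, 33 and 34, so their parts cannot be told apart. Between the groups of pigs 27, 28 and 30 and of pigs 31, 33 and 34, NRP and the duration of storage changed together and cannot be told apart either. The time of day of each biopsy is not given in the sources used here, and a clock gene's level depends on it.

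The labels give the cell type as cardiomyocytes, and the cardiomyocyte genes TNNT2 (7220 to 15218 TPM) and TNNI3 (7841 to 16475 TPM) were high in every heart. The tissue was nevertheless bulk myocardium: 5 of 6 endothelial markers were listed, with summed levels of 204 to 470 TPM, and 4 of 5 fibroblast markers, with 390 to 655 TPM. In such samples fewer cells of a type and less RNA per cell cannot be told apart. The 13 mitochondrially encoded protein genes took 38.2% of TPM in pig 30 and 44.8% to 55.3% in the other hearts. Pig 27 had the lowest sums of endothelial (204 TPM), smooth muscle (214 TPM) and leukocyte (21.0 TPM) markers of all 9 hearts. The values carry no read counts. The depth is thus unknown, and errors are given as the SD over 3 hearts.

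**Figure D1:**
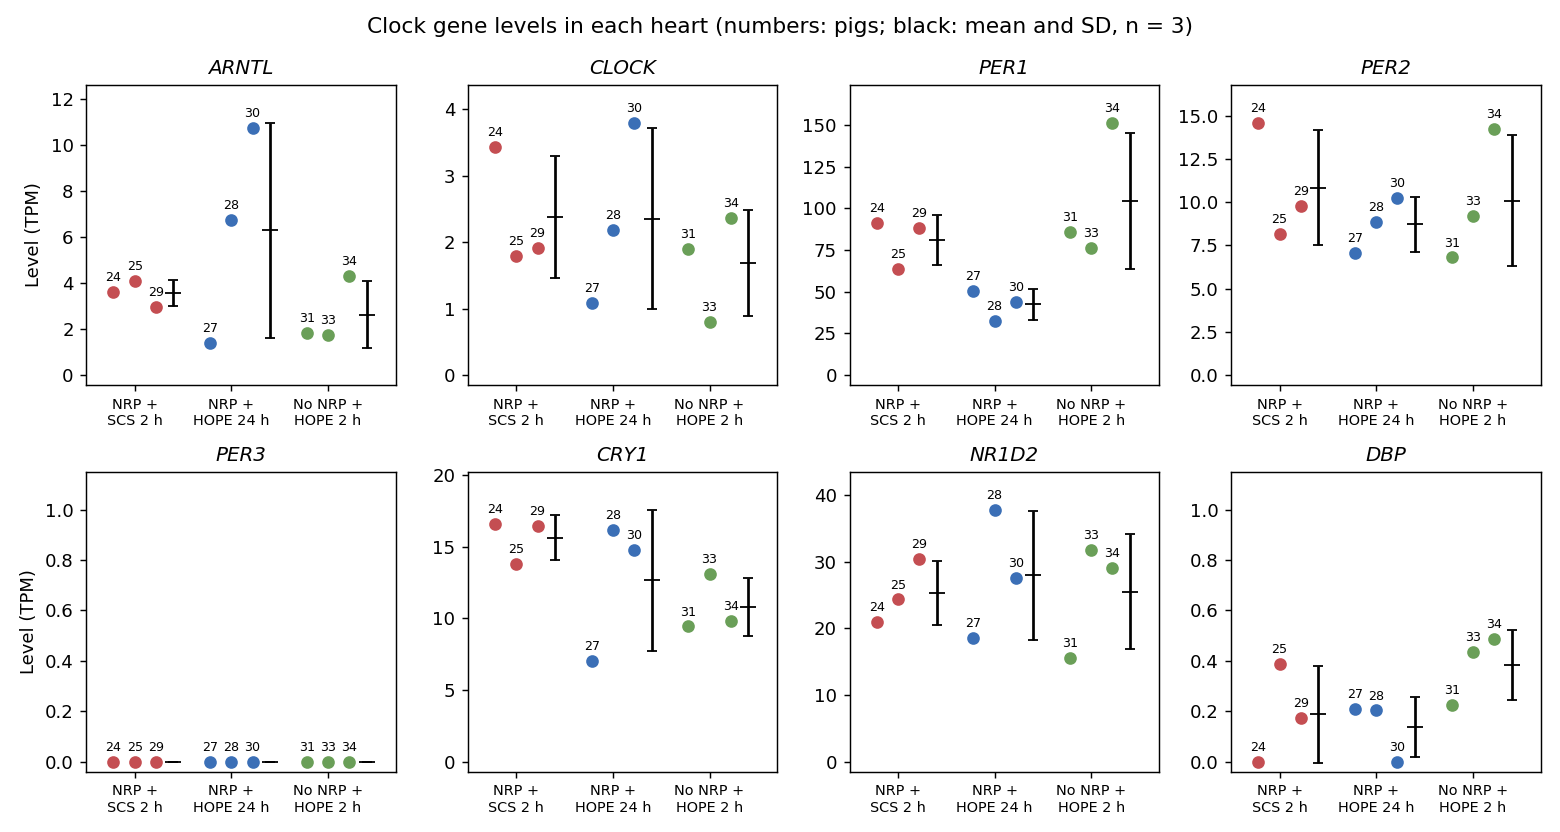
Level of each listed clock gene in TPM (vertical axes, different scale for each gene) in the 9 hearts, coloured by group and numbered by pig, with the mean and SD of the 3 hearts in black. PER1 is lowest in the 3 NRP + HOPE 24 h hearts (32.6 to 50.6 TPM), ARNTL is most scattered in the same group (1.41 to 10.7 TPM), and PER3 is listed at 0 in every heart.

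Among the activators, ARNTL was expressed at a low level and CLOCK lower still. ARNTL was at 3.63, 4.08 and 2.98 TPM in the NRP + SCS 2 h hearts of pigs 24, 25 and 29, at 1.41, 6.75 and 10.7 TPM in the NRP + HOPE 24 h hearts of pigs 27, 28 and 30, and at 1.81, 1.73 and 4.30 TPM in the No NRP + HOPE 2 h hearts of pigs 31, 33 and 34. The NRP + HOPE 24 h group therefore held both the lowest and the highest of the 9 hearts, and all groups overlapped. Its mean of 6.30 ± 4.68 TPM (SD, n = 3) stood above 3.56 ± 0.555 TPM in NRP + SCS 2 h and 2.62 ± 1.46 TPM in No NRP + HOPE 2 h, but the difference between neighbouring means was smaller than the larger SD of the pair. The SD within groups was 0.76 on the log2(TPM + 1) scale, and 91.4% of the genes tested had a smaller one (median over all genes 0.42).

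The ARNTL difference depended on pigs 27 and 30. With all hearts, the limma log2 fold change against NRP + SCS 2 h was 0.41 (95% interval -0.66 to 1.48, unadjusted p = 0.424, adjusted p = 0.993), and against No NRP + HOPE 2 h it was 0.81 (interval -0.26 to 1.88, unadjusted p = 0.126, adjusted p = 0.922). Without pig 27 these differences were 1.07 (limma unadjusted p = 0.0168, adjusted p = 0.754) and 1.47 (limma unadjusted p = 0.00253, adjusted p = 0.276). Without pig 30 they were -0.072, the direction being turned, and 0.33 (limma unadjusted p = 0.886 and 0.518). Pig 27, lowest in ARNTL, also had the highest mitochondrially encoded share (55.3%), and pig 30, highest in ARNTL, had the lowest share (38.2%). With these genes left out and TPM rescaled, the log2 fold changes of ARNTL were 0.39 and 0.88. The part of the mitochondrially encoded share in the spread of ARNTL was not tested.

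CLOCK, the partner of ARNTL, was at 3.44, 1.79 and 1.91 TPM in NRP + SCS 2 h, at 1.08, 2.19 and 3.80 TPM in NRP + HOPE 24 h and at 1.90, 0.803 and 2.36 TPM in No NRP + HOPE 2 h. In the same order the groups averaged 2.38 ± 0.917, 2.36 ± 1.37 and 1.69 ± 0.802 TPM (SD, n = 3 each), and all of them overlapped. Only 20.3% of the genes tested had a lower mean than CLOCK, so its values are among the least precise of the set. The limma log2 fold change of NRP + HOPE 24 h against NRP + SCS 2 h was -0.06 (interval -0.90 to 0.78), which leaves room for a change in either direction.

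Pig 30 had the highest level of both activators, and CLOCK and ARNTL ran together over the 9 hearts. Pearson's r of log2(TPM + 1) was 0.775 (exact permutation p = 0.0136, Benjamini-Hochberg adjusted p = 0.0545 over 4 pairs of clock genes, the other 4 of 8 planned pairs holding NR1D1 or PER3 and giving no value), and Spearman's rho was 0.783 (exact permutation p = 0.0172, adjusted p = 0.0689). It did not pass the correction. With the group means removed r was 0.784, and it was 0.640 after median-of-ratios scaling. Without the hearts of pigs 30 and 33, those farthest from the median of CLOCK, r was 0.565 (n = 7, exact permutation p = 0.170), a smaller set with a narrower range of CLOCK.

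PER1, the period gene that hormonal signals induce directly, was the most abundant member, with a mean over all hearts of 76.0 TPM that exceeded the mean of 92.6% of the genes tested. Its level was 91.3, 63.5 and 88.3 TPM in the NRP + SCS 2 h hearts of pigs 24, 25 and 29. In the NRP + HOPE 24 h hearts of pigs 27, 28 and 30 it was 50.6, 32.6 and 43.7 TPM. In the No NRP + HOPE 2 h hearts of pigs 31, 33 and 34 it was 85.9, 76.4 and 151 TPM. The 24 h hearts were the 3 lowest of the 9 and overlapped with neither other group, whereas the groups stored for 2 h overlapped with each other.

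In TPM, PER1 averaged 81.1 ± 15.2 in NRP + SCS 2 h, 42.3 ± 9.05 in NRP + HOPE 24 h and 105 ± 40.9 in No NRP + HOPE 2 h (SD, n = 3 each). Against NRP + SCS 2 h, the 24 h group was 1.90-fold lower on the log2(TPM + 1) scale (limma log2 fold change -0.93, SE 0.31, 95% interval -1.60 to -0.25, unadjusted p = 0.0108). The adjusted p of limma over all 11782 genes was 0.790, and 1.36% of the genes tested had a smaller unadjusted p. Against No NRP + HOPE 2 h it was 2.36-fold lower (limma log2 fold change -1.24, SE 0.31, interval -1.92 to -0.57, unadjusted p = 0.00151, adjusted p = 0.300), with a smaller p in 0.492% of genes. The 2 comparisons share the same 24 h hearts. An exact two-sided permutation test of each difference gave p = 0.1, the smallest that 3 hearts against 3 allow. Relative to NRP + SCS 2 h, the No NRP + HOPE 2 h hearts differed by a log2 fold change of 0.32 (limma, interval -0.36 to 0.99, unadjusted p = 0.333), and without pig 34 by 0.017.

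The direction of PER1 in the 24 h hearts was the same under all 18 alternative settings, but not every setting could change it. A changed filter, eBayes without trend, fitting only the hearts compared and leaving out a heart of the uncompared group keep both group means. Under these the log2 fold changes stayed at -0.93 against NRP + SCS 2 h and -1.24 against No NRP + HOPE 2 h. The settings that could change them gave -1.09 to -0.75 and -1.43 to -0.94. The difference from NRP + SCS 2 h depended on pig 28, the lowest heart, without which it was -0.75 with an unadjusted limma p of 0.0518. Under median-of-ratios scaling and quantile normalization the PER1 levels of NRP + HOPE 24 h hearts overlapped with those of NRP + SCS 2 h (log2 fold changes -0.78 and -0.85). Smooth muscle markers were lower in the 24 h hearts than in No NRP + HOPE 2 h without overlap, but overlapped with NRP + SCS 2 h: 4 of 4 were listed, with sums of 214 to 387 TPM in NRP + HOPE 24 h, 294 to 438 TPM in NRP + SCS 2 h and 415 to 466 TPM in No NRP + HOPE 2 h, and MYH11 was listed at 0 in all hearts. The 3 neutrophil markers listed of 5 were higher in the 24 h hearts (0.357 to 3.89 TPM) than in No NRP + HOPE 2 h (0 to 0.343 TPM), also without overlap, and overlapped with NRP + SCS 2 h (2.02 to 13.2 TPM), with CSF3R at 0 in all hearts. The part of these cell types in the PER1 difference was not tested.

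PER2, the second period gene, overlapped between all groups. It was at 14.6, 8.16 and 9.80 TPM in NRP + SCS 2 h, at 7.06, 8.85 and 10.2 TPM in NRP + HOPE 24 h and at 6.81, 9.21 and 14.2 TPM in No NRP + HOPE 2 h. The means of 10.9 ± 3.35, 8.72 ± 1.60 and 10.1 ± 3.80 TPM (SD, n = 3 each) differed by less than the SD of the NRP + SCS 2 h group. The limma log2 fold change of the 24 h hearts was -0.26 (interval -0.99 to 0.46) against NRP + SCS 2 h and -0.15 (interval -0.87 to 0.57) against No NRP + HOPE 2 h. Over the 9 hearts PER1 and PER2 gave r = 0.504 (exact permutation p = 0.167, adjusted p = 0.334) and rho = 0.467 (exact permutation p = 0.213, adjusted p = 0.392), and r = 0.273 without pigs 28 and 34. PER3, the remaining period gene, was listed at 0 in all 9 hearts.

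CRY1, the cryptochrome that holds the activator in check, had a mean of 13.0 TPM over all hearts. It was at 16.6, 13.8 and 16.5 TPM in NRP + SCS 2 h, at 7.04, 16.2 and 14.8 TPM in NRP + HOPE 24 h and at 9.43, 13.1 and 9.84 TPM in No NRP + HOPE 2 h. Every No NRP + HOPE 2 h heart lay below every NRP + SCS 2 h heart, the nearest pair being at 13.1 and 13.8 TPM, while the 24 h hearts overlapped with both groups and pig 27 was the lowest of all. Groups averaged 15.6 ± 1.57, 12.7 ± 4.92 and 10.8 ± 2.02 TPM (SD, n = 3 each). The difference of No NRP + HOPE 2 h from NRP + SCS 2 h was -0.50 in log2 (limma, SE 0.33, interval -1.22 to 0.21, unadjusted p = 0.152, adjusted p = 0.821), and the exact permutation p was 0.1. These groups also did not overlap in the summed fibroblast markers (4 of 5 listed, 526 to 655 TPM in No NRP + HOPE 2 h against 390 to 507 TPM), erythroid markers (4 of 5 listed, 226 to 379 TPM against 72.3 to 136 TPM, led by HBB) and neutrophil markers (3 of 5 listed, 0 to 0.343 TPM against 2.02 to 13.2 TPM, CSF3R listed at 0 in all hearts). Their part in the CRY1 difference was not tested.

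NR1D2, the nuclear receptor that represses ARNTL, was the second most abundant member. It was at 21.0, 24.3 and 30.4 TPM in NRP + SCS 2 h, at 18.5, 37.8 and 27.6 TPM in NRP + HOPE 24 h and at 15.6, 31.7 and 29.1 TPM in No NRP + HOPE 2 h. The means of 25.3 ± 4.79, 28.0 ± 9.65 and 25.5 ± 8.64 TPM (SD, n = 3 each) differed by less than any of their SDs, and the 3 limma log2 fold changes lay between -0.03 and 0.13. Their intervals reached from -0.78 to 0.88 at most. The sign of these differences turned when single hearts were left out, so no direction can be given.

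DBP, the output factor, was near 0 throughout. Its level was 0, 0.388 and 0.174 TPM in NRP + SCS 2 h, 0.208, 0.203 and 0 TPM in NRP + HOPE 24 h and 0.225, 0.435 and 0.488 TPM in No NRP + HOPE 2 h. The last group lay above the 24 h hearts without overlap (exact permutation p = 0.1, the smallest possible), but the values are too low for a fold change to be read. DBP and ARNTL gave r = -0.387 (exact permutation p = 0.302, adjusted p = 0.402), rho = -0.268 (exact permutation p = 0.481) and, without pigs 24 and 34, r = -0.604 over 7 hearts (exact permutation p = 0.151). DBP and NFIL3, the repressor that competes for the same DNA elements, gave r = 0.301 (exact permutation p = 0.431), rho = 0.393 (exact permutation p = 0.294) and, without pigs 29 and 31, r = 0.490. With the group means removed, r was -0.158 for the first pair, 0.356 for the second and 0.598 for PER1 and PER2.

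Counted against the whole table, 0 of 6 tested members were called in each comparison, that is, had an adjusted limma p under 0.05 and a log2 fold change above 1 in size. The background share of genes that passed was 0.0255% (3 genes) for NRP + HOPE 24 h relative to NRP + SCS 2 h, 0.0509% (6 genes) for No NRP + HOPE 2 h relative to NRP + SCS 2 h, and 0.0509% (6 genes) for NRP + HOPE 24 h relative to No NRP + HOPE 2 h. At an unadjusted limma p under 0.05, PER1 was the 1 member lower in NRP + HOPE 24 h than in NRP + SCS 2 h, where 3.14% of all genes were lower, and 0 members were higher, where 1.82% of all genes were. No NRP + HOPE 2 h relative to NRP + SCS 2 h had 0 members in either direction, beside 4.65% of genes lower and 2.57% higher. NRP + HOPE 24 h relative to No NRP + HOPE 2 h again had PER1 as 1 member lower and 0 higher, beside 3.23% and 2.78% of all genes.

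The hearts of a group can also be compared by overlap alone. PER1 was the 1 member whose NRP + HOPE 24 h hearts all lay below the NRP + SCS 2 h hearts, and 0 members lay above, beside 7.32% and 2.5% of all genes. CRY1 was the 1 member with all No NRP + HOPE 2 h hearts below NRP + SCS 2 h, with 0 above, beside 10.3% and 4.44% of genes. Between NRP + HOPE 24 h and No NRP + HOPE 2 h, PER1 was the 1 member below and 0 were above, beside 4.51% and 2.97%. With 6 genes, 1 gene is 1 in 6, and the counts are too small to set the members apart from the table. The median log2 fold change of the tested members was -0.16, -0.23 and 0.14 in these comparisons, where that of all genes was -0.12, -0.07 and -0.03.

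**Figure D2:**
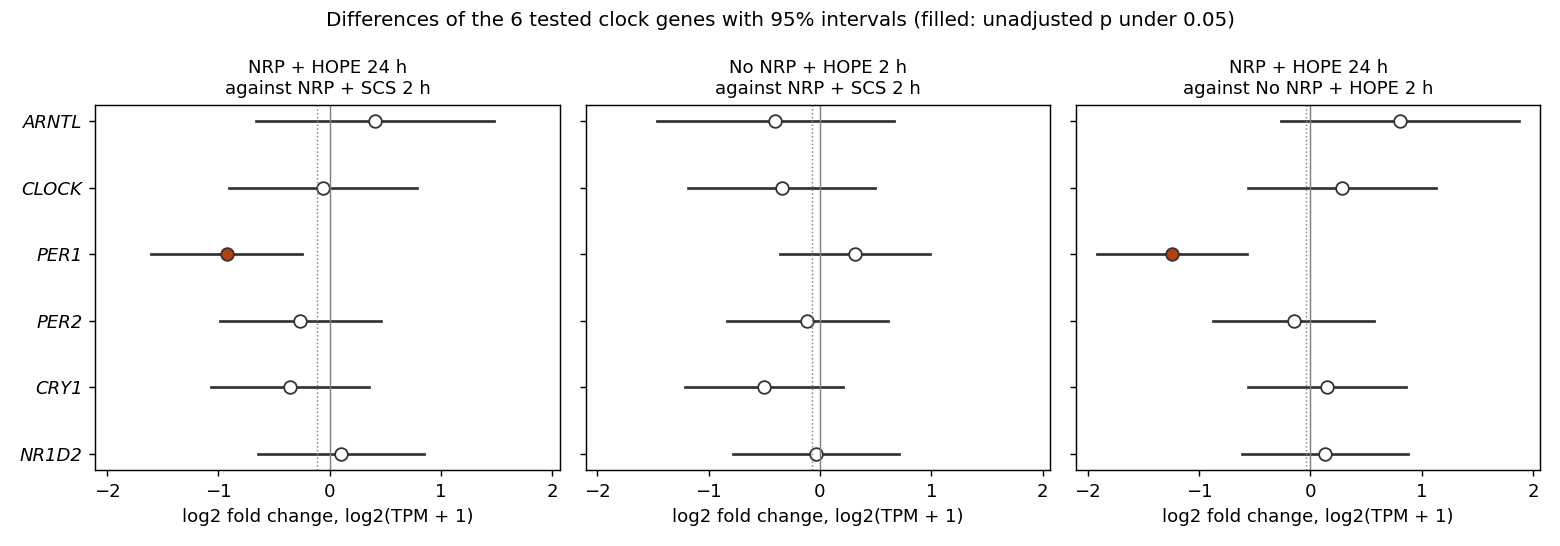
limma log2 fold changes on the log2(TPM + 1) scale (horizontal axis) of the 6 tested clock genes in the 3 comparisons, with 95% intervals as lines, a solid line at 0 and a dotted line at the median of all genes tested. PER1 (filled) lies below 0 with its whole interval in both comparisons of the 24 h hearts (-0.93 and -1.24), and the other 16 intervals include 0.

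The balance of PER1 to the other members was taken as a ratio of TPM within each heart, a measure chosen after the values were seen and given without a test. PER1 stood at 25.1, 15.6 and 29.7 times the ARNTL level in NRP + SCS 2 h, at 36.0, 4.84 and 4.07 times in NRP + HOPE 24 h and at 47.4, 44.1 and 35.2 times in No NRP + HOPE 2 h. The hearts of pigs 28 and 30 thus had a ratio far below that of any other heart, while pig 27 of the same group fell among the No NRP + HOPE 2 h hearts. PER1 over PER2 was 6.25, 7.79 and 9.02 in NRP + SCS 2 h, 7.16, 3.69 and 4.27 in NRP + HOPE 24 h and 12.6, 8.29 and 10.6 in No NRP + HOPE 2 h. Again pigs 28 and 30 were lowest, and all 24 h hearts lay below all No NRP + HOPE 2 h hearts.

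**Figure D3:**
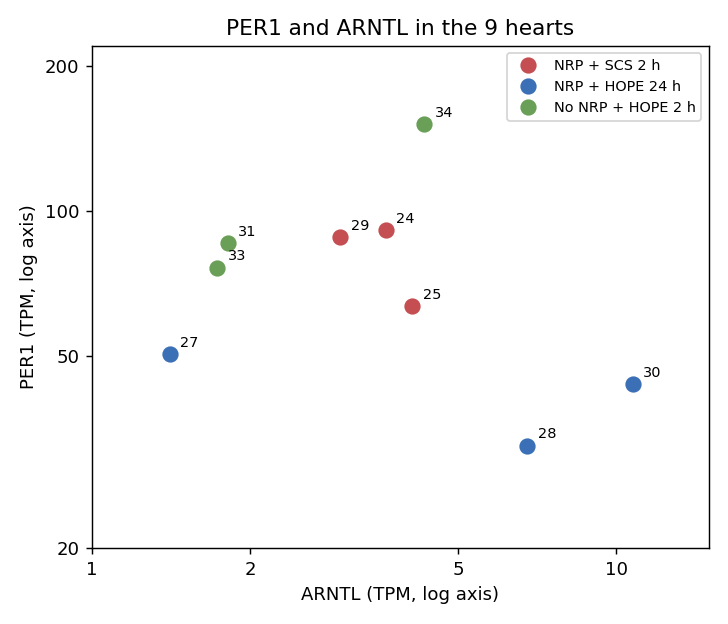
PER1 level (vertical log axis, TPM) against ARNTL level (horizontal log axis, TPM) in the 9 hearts, coloured by group and numbered by pig. Pigs 28 and 30, stored for 24 h, combine low PER1 (32.6 and 43.7 TPM) with the highest ARNTL (6.75 and 10.7 TPM), and pig 27 of the same group has the lowest ARNTL (1.41 TPM).

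Other genes of the clock pathway were taken from 6 lists by role, 39 genes written in all, of which 31 were listed and 28 tested. In each comparison 0 of the 28 passed limma's adjusted test. At an unadjusted limma p under 0.05, USP2 was lower in NRP + HOPE 24 h than in NRP + SCS 2 h, CREM was higher in No NRP + HOPE 2 h than in NRP + SCS 2 h, and in NRP + HOPE 24 h ARNTL2 was higher and TSC22D3 lower than in No NRP + HOPE 2 h. That is at most 1 of 28 per direction, near the shares of all genes given above. The median log2 fold change of the 28 genes was -0.07, -0.10 and 0.02.

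The first list held further activators and ROR factors, nuclear receptors that switch ARNTL on (4 of 5 tested). NPAS2, which can stand in for CLOCK, was the highest of them at a mean of 5.40 TPM, RORA had 2.52 TPM, and neither separated any groups. ARNTL2, a paralog of ARNTL, was at 0.467, 1.02 and 0.766 TPM in NRP + SCS 2 h, at 0.629, 2.38 and 5.64 TPM in NRP + HOPE 24 h and at 0.247, 0 and 0.214 TPM in No NRP + HOPE 2 h. Pigs 28 and 30 were the highest hearts in ARNTL2 as in ARNTL, and the No NRP + HOPE 2 h hearts were the lowest. Only the hearts of pigs 25, 28 and 30 reached 1 TPM, so ARNTL2 passed the filter mainly through the 24 h group. It was not tested when any of these hearts was left out, and its p-value is given as description only. Its limma log2 fold change of NRP + HOPE 24 h relative to No NRP + HOPE 2 h was 1.53 (SE 0.45, unadjusted p = 0.00413, adjusted p = 0.420), and 6 of the 9 hearts were below 1 TPM. At such levels its size depended on the scale: the log2 fold change was 3.30 with a pseudocount of 0.1 and 2.05 without the mitochondrially encoded genes. It ranged from 1.43 to 3.30 over the 14 alternatives in which ARNTL2 was tested (limma adjusted p 0.107 to 0.676).

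Among repressors and output factors, the tested genes overlapped between groups. CRY2, the second cryptochrome, had a mean of 17.6 TPM and its highest heart was pig 34 at 33.6 TPM, the heart that was also highest in PER1. BHLHE41, an E-box repressor, had a mean of 1.73 TPM. NFIL3 was at 36.5 ± 5.93 TPM in NRP + SCS 2 h, 41.5 ± 2.98 TPM in NRP + HOPE 24 h and 41.1 ± 8.09 TPM in No NRP + HOPE 2 h (SD, n = 3 each), and HLF, a relative of DBP, averaged 1.01 TPM.

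Of the kinases, ligases and other regulators of clock proteins, 8 of 10 were tested. CSNK1A1 (mean 121 TPM) and CSNK1E (41.4 TPM), casein kinases, the latter a kinase of PER proteins, overlapped in every comparison. USP2, a clock-controlled deubiquitinase, was at 38.8, 47.8 and 54.5 TPM in NRP + SCS 2 h, at 29.2, 23.3 and 32.1 TPM in NRP + HOPE 24 h and at 25.3, 26.2 and 42.9 TPM in No NRP + HOPE 2 h. All 24 h hearts lay below all NRP + SCS 2 h hearts (28.2 ± 4.51 against 47.0 ± 7.89 TPM, SD, n = 3 each). The limma log2 fold change was -0.72 (SE 0.29, unadjusted p = 0.0297, adjusted p = 0.943), and the unadjusted p rose above 0.05 without pig 25, 28 or 29 (0.0762, 0.110 and 0.112, limma). FBXW11, a subunit of a ubiquitin ligase, was higher without overlap in NRP + HOPE 24 h than in No NRP + HOPE 2 h (6.62 ± 1.52 against 4.22 ± 1.60 TPM, limma log2 fold change 0.58, adjusted p = 0.898). With ARNTL2 it made 2 of 28 genes above without overlap in that comparison, where 2.97% of all genes were. The smooth muscle and neutrophil sums given with PER1 separate the same groups, and their part in either gene was not tested.

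Clock-controlled genes of the heart, with 5 of 8 tested, were led by TCAP, a sarcomere protein, at a mean of 2333 TPM and with log2 fold changes of 0.0083, 0.18 and -0.17. NAMPT, the enzyme that makes the NAD+ precursor, averaged 55.0 TPM and also overlapped. WEE1, a cell cycle kinase with E-box control, was at 43.8, 35.1 and 41.0 TPM in NRP + SCS 2 h, at 19.0, 31.0 and 24.8 TPM in NRP + HOPE 24 h and at 16.7, 22.1 and 38.0 TPM in No NRP + HOPE 2 h. The 24 h hearts lay below the NRP + SCS 2 h hearts without overlap (limma log2 fold change -0.68, unadjusted p = 0.0568, adjusted p = 0.993). With USP2 it made 2 of 28 genes of these lists below without overlap, where 7.32% of all genes were.

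Inputs to the clock, with 7 of 9 tested, include the cold-induced RNA-binding proteins and glucocorticoid targets. RBM3 (mean 273 TPM) and CIRBP (126 TPM), both induced by mild cold, overlapped in all comparisons, with log2 fold changes of the 24 h hearts against NRP + SCS 2 h of -0.08 and -0.03. TSC22D3, a glucocorticoid target as PER1 is, was at 111, 69.6 and 87.9 TPM in NRP + SCS 2 h, at 58.1, 78.6 and 105 TPM in NRP + HOPE 24 h and at 93.6, 138 and 184 TPM in No NRP + HOPE 2 h. Its highest heart, pig 34, was that of PER1, and also of CRY2, NFIL3, NAMPT, CREM and FKBP5. Other genes of the lists, RBM3 and CIRBP among them, were highest in other hearts. The limma log2 fold change of NRP + HOPE 24 h relative to No NRP + HOPE 2 h was -0.76 (SE 0.32, unadjusted p = 0.0328, adjusted p = 0.795), the groups overlapped, and the unadjusted p was above 0.05 without pig 27, 28, 33 or 34 (0.124, 0.0622, 0.0715 and 0.151, limma). FKBP5, another glucocorticoid target of the list, averaged 49.7 ± 21.3 TPM in NRP + HOPE 24 h and 53.6 ± 34.6 TPM in No NRP + HOPE 2 h (SD, n = 3 each), with a limma log2 fold change of -0.02 (unadjusted p = 0.957).

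CREM, a cyclic AMP-responsive regulator, went the other way from CRY1. It was at 19.97, 25.5 and 27.0 TPM in NRP + SCS 2 h, at 24.2, 41.4 and 42.3 TPM in NRP + HOPE 24 h and at 38.3, 43.7 and 53.5 TPM in No NRP + HOPE 2 h. Every heart without NRP lay above every NRP + SCS 2 h heart (45.2 ± 7.72 against 24.2 ± 3.70 TPM, limma log2 fold change 0.87, SE 0.30, unadjusted p = 0.0112, adjusted p = 0.516), and without pig 24 the limma unadjusted p was 0.0557. HSF1, the heat shock factor, was lower without overlap in the same comparison (29.3 ± 4.18 against 40.3 ± 5.70 TPM, limma log2 fold change -0.45, adjusted p = 0.826). The fibroblast, erythroid and neutrophil sums given with CRY1 separate these groups too, and their part was not tested.

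**Figure D4:**
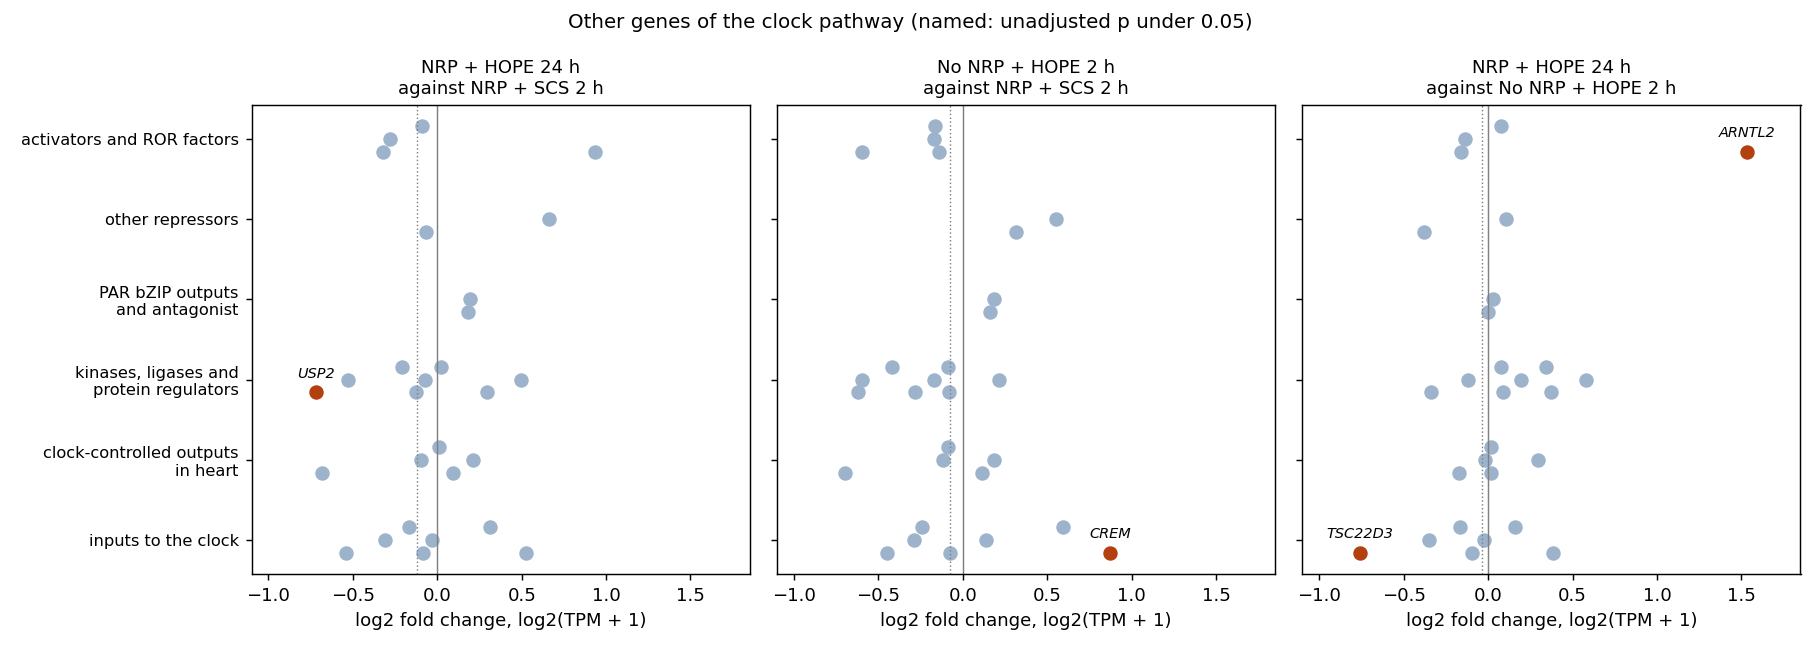
limma log2 fold changes on the log2(TPM + 1) scale (horizontal axis) of the 28 tested genes of the 6 other clock lists (rows) in the 3 comparisons, each point a gene, with a solid line at 0 and a dotted line at the median of all genes tested. Named points had an unadjusted p under 0.05: USP2 (-0.72), CREM (0.87), ARNTL2 (1.53) and TSC22D3 (-0.76), and the rest are spread on both sides of 0.

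The genes whose pattern over the 9 hearts was most like that of PER1, by Pearson's r of log2(TPM + 1) among 4889 genes with a symbol and a mean of at least 5 TPM, were FAM46C (0.966), DEPP1 (0.953) and CWF19L2 (0.944). For ARNTL, among 4890 genes, they were PPP2CB (0.959), TRIM55 (0.947), a muscle RING-finger protein, and PMPCB (0.946), a subunit of the mitochondrial processing peptidase. For DBP, whose values are near 0, the likeness was weaker, at 0.817 for CPNE1, 0.817 for FMO1 and 0.787 for MPP5. All these correlations share the same 9 hearts and their scaling, and are the highest among all genes compared.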

How the data were processed

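RNA from 9 flash-frozen apex biopsies was enriched for poly(A) RNA and sequenced in paired ends. Per the labels and methods, the authors trimmed reads (Trimmomatic 0.36), aligned them to the pig genome (STAR 2.5.2b; the build is not given in the sources used here), counted them with featureCounts of Subread 1.5.2, and called genes with DESeq2 on counts. The TPM values that the authors deposited were used here. Read counts were not analysed here, so depth is unknown. Strandedness of counting is not stated.

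Hearts were grouped by the pig number in label and column name; 9 further columns could not be tied to a sample and were not used. TPM are not counts, so limma 3.58.1 (R 4.3.3) was fitted to log2(TPM + 1), 1 mean per group, 9 hearts, eBayes with trend, two-sided, Benjamini-Hochberg adjusted over the 11782 genes that reached 1 TPM in 3 or more hearts, after a test on simulated data. The limma p-values judge each group difference against the spread between pigs, which is estimated with information from all genes tested. Exact permutation tests of group differences were run in R. Those of correlations used numpy 2.4.6 in Python 3.11.15, with ranks from scipy 1.17.1.

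Named genes were the listed members, the list genes with an unadjusted p under 0.05, the 3 highest genes of each list, and the 3 most alike. FBXW11 and HSF1, as genes whose groups did not overlap, and FKBP5 were added after their values were seen. For 3 list genes without a symbol (CSNK1E, WEE1 and RBM3) the identifier was looked up in a reference table. Results for some list genes are not reported here. Members and lists were chosen with earlier results of these data known. Alternatives were a pseudocount of 0.1, no filter, a mean of at least 5 TPM, median-of-ratios scaling, quantile normalization, no mitochondrially encoded genes, the 6 hearts compared alone, eBayes without trend, array weights and leaving out each heart.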

Additional observations from a re-analysis of the deposited data

How the results depend on the processing

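No paired analysis was possible because the groups share no replicate numbers: each pig gave 1 heart. No member passed limma's adjusted threshold under any alternative. For PER1 in NRP + HOPE 24 h, the adjusted p of limma ranged from 0.147 to 0.9999 against NRP + SCS 2 h and from 0.107 to 0.967 against No NRP + HOPE 2 h over 18 alternatives, and the unadjusted p was under 0.05 in 17 and 18 of them. Median-of-ratios scaling moved the median of all genes by 0.12 in the first comparison.

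The count of members without overlap, for NRP + HOPE 24 h relative to NRP + SCS 2 h, was 0 after median-of-ratios scaling and 0 after quantile normalization. For NRP + HOPE 24 h relative to No NRP + HOPE 2 h it was 2 with no filter, since DBP was then counted, and 2 members had an unadjusted p under 0.05 with array weights, ARNTL being added. Leaving out single hearts gave 0 to 2 members at an unadjusted p under 0.05 in the first of these comparisons (0 without pig 28, 2 without pig 27) and 1 to 2 in the second (2 without pig 27). Counts without overlap were 1 to 2 in the first (2 without pig 25 or pig 27), 1 to 3 in the second (3 without pig 27), and 1 to 2 for No NRP + HOPE 2 h relative to NRP + SCS 2 h (2 without pig 34). Fewer hearts make such separations easier, and other causes were not tested.

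Some log2 fold changes with intervals on both sides of 0 reversed. For NRP + HOPE 24 h relative to NRP + SCS 2 h, leaving out single hearts gave -0.072 to 1.07 for ARNTL, -0.36 to 0.24 for CLOCK and -0.14 to 0.36 for NR1D2, and CLOCK was 0.013 after median-of-ratios scaling and 0.0074 after quantile normalization. For No NRP + HOPE 2 h relative to NRP + SCS 2 h, the ranges were -0.37 to 0.11 for PER2 and -0.22 to 0.27 for NR1D2, and NR1D2 was 0.062, 0.10 and 0.20 with median-of-ratios scaling, quantile normalization and array weights. For NRP + HOPE 24 h relative to No NRP + HOPE 2 h, they were -0.37 to 0.11 for PER2, -0.014 to 0.59 for CLOCK, -0.054 to 0.49 for CRY1 and -0.17 to 0.39 for NR1D2. The cause was not tested. Over all genes, 3, 6 and 6 genes passed the adjusted threshold in these comparisons, and 60, 94 and 14 with array weights, which gave pig 30 the lowest weight.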

Other observations

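Further ratios within hearts were chosen after the values were seen and not tested. PER1 over CRY1 was 5.50, 4.60 and 5.37 in NRP + SCS 2 h, 7.18, 2.02 and 2.96 in NRP + HOPE 24 h and 9.10, 5.82 and 15.4 in No NRP + HOPE 2 h, with the last group above the first without overlap. PER1 over NR1D2 was 4.35, 2.61 and 2.90 in NRP + SCS 2 h, 2.73, 0.863 and 1.59 in NRP + HOPE 24 h and 5.50, 2.41 and 5.21 in No NRP + HOPE 2 h, and the groups overlapped. PER1 over CLOCK was 26.6, 35.5 and 46.2 in NRP + SCS 2 h, 46.8, 14.9 and 11.5 in NRP + HOPE 24 h and 45.1, 95.1 and 64.1 in No NRP + HOPE 2 h. In all of these ratios the hearts of pigs 28 and 30 were the 2 lowest of the 9.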
